A study of Mus musculus with 3 samples.

Results

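Basement membrane and matrix genes were followed through lung endothelial cells (ECs) as 35 genes listed by symbol, out of the 32285 genes counted per library. Each of the 35 was found under 1 gene ID. The list holds collagens IV, XV and XVIII, laminin chains, the nidogens and proteoglycans that join the networks, matricellular proteins, elastic fibre proteins, the EMILIN and multimerin family, and the secreted proteins Tinagl1, Egfl7 and Vwa1. They were counted in EC barcodes, which had 1000 to 5000 detected genes, under 20% mitochondrial UMIs, at least 2 UMIs of Pecam1 and Cdh5 together and under 3 UMIs of the fibroblast genes Dcn, Col1a1 and Col1a2 together. A UMI is the tag of a single captured RNA molecule.

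The libraries came from WT C57BL/6 mice per the labels, which the study's methods give as C57BL/6JRj males of 8 to 10 weeks for this injection model, and there was 1 library per group. The control mice received PBS by the tail vein and were taken at 6 h. The other groups received 200000 cells of B16-F10, a mouse melanoma line that lodges in lung capillaries, in 100 µl of PBS, and were taken at 6 h or at 30 h, to ask how the vessel wall responds to arriving tumor cells. Mice were pooled, 2 per treatment per the labels and 3 per the study's methods, and lungs were digested with collagenase before Pecam1+ Ptprc- cells were sorted. Melanoma cells were added to the 6 h library as well. No 30 h PBS library was analysed here, so time after injection and handling of the 30 h mice cannot be told apart from the melanoma cells, and both melanoma groups share 1 control library. The study ran control and 6 h in 3 independent experiments and 30 h in 1, and only the experiment that holds the 30 h library was used here. No group had a second library here, so no difference was tested against replicate spread. Intervals are at 95% and cover counting error only.

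There were 11129 control, 10521 6 h and 9197 30 h EC barcodes, with median depths of 7761 to 8651 UMIs, and between 22 and 37 of these barcodes were shared by a pair of libraries. Pecam1, Cdh5 and the other pan-endothelial markers summed to between 5225 and 6253 UMIs per 1000000 UMIs (CPM). All of the fibroblast, pericyte and smooth muscle and epithelial markers listed were detected in the EC barcodes. Fibroblast markers summed to 12.7 to 14.3 CPM. Melanoma markers summed to 1.24 CPM in control, 14.3 at 6 h and 1.06 at 30 h, and in empty droplets to 2.28, 426 and 3.41 CPM. Pericyte and smooth muscle markers summed to 66.3 CPM in control, 73.0 at 6 h and 85.5 at 30 h, epithelial markers to 1482, 1175 and 998 CPM, and red cell markers to 3257, 2091 and 835 CPM. The part of these other cells in the member values was not tested except by leaving barcodes out as an alternative. This left out barcodes with at least 2 UMIs of the platelet, pericyte and smooth muscle, epithelial, leukocyte, mesothelial or melanoma markers. Red cell markers were not used for this, and fibroblast genes only in the EC definition. The 30 h library stood further from control than the 6 h library did: of 10143 genes averaging 5 CPM or more, 4.91% were past 1.5-fold higher and 5.02% past 1.5-fold lower at 30 h, against 2.08% and 1.25% at 6 h.

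The basement membrane is a thin sheet under the endothelium in which a laminin polymer and a collagen IV network are tied together by nidogens and by the heparan sulfate proteoglycans perlecan and agrin. In the alveolus the sheet of the capillary is fused over long stretches with that of the epithelium, and elastic fibres, made of an elastin core on fibrillin microfibrils, give the lung its recoil. Endothelial cells, pericytes, fibroblasts and epithelium all add to this matrix. UMIs were read from the 3′ ends of transcripts, so a CPM value is not divided by gene length.

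The RefSeq promoter table (GRCm38.p6) covered 25 of the 35 members in 35 windows. Upstream sequence is shown for 4 of these members, picked as examples after their values were seen: collagens Col15a1 and Col18a1 for their log2 ratios at 6 h, Fbln5 for its vein-like level and Tinagl1 for its lower level at 30 h. Each window is written 5′ to 3′ on the strand of the gene. Each ends at a RefSeq transcript start, except that of Col18a1, which stops short of it where an annotated UTR begins. Of several starts of a gene, the farthest upstream with enough bases outside annotated UTRs was taken. In the GENCODE M21 annotation, Col15a1 starts at 47208161 and Fbln5 at 101819055, downstream of the windows shown. Capitals mark, on either strand, the GC box with the letters GGGCGG, the AP-1 site with TGANTCA, the ETS core with AGGAAG, the hypoxia element core with ACGTG, the TATA box with TATAAA, and the CCAAT box.
Col15a1, chr4:47207762-47208011, plus strand: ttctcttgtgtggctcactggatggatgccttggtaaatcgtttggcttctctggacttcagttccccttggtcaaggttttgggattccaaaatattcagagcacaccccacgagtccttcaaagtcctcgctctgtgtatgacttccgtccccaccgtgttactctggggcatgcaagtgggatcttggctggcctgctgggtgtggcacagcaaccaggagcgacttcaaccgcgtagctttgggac
Col18a1, chr10:77166549-77166780, minus strand: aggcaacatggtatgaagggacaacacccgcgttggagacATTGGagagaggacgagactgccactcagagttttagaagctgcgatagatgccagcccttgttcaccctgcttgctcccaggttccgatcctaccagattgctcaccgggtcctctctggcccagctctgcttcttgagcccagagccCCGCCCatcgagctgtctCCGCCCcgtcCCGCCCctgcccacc
Fbln5, chr12:101819120-101819369, minus strand: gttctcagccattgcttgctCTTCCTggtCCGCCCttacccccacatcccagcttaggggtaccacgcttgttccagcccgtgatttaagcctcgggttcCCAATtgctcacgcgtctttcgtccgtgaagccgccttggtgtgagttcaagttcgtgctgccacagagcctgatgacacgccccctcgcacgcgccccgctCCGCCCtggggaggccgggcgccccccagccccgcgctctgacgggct
Tinagl1, chr4:130175123-130175372, minus strand: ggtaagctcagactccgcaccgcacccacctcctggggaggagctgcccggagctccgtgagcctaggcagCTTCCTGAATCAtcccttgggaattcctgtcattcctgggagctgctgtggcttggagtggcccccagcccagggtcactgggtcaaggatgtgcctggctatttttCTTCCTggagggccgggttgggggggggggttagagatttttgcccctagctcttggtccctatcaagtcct

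The Col18a1 window held 3 GC boxes within 61 bases of the start, and the Fbln5 window held 2. The Tinagl1 window held an AP-1 match whose first base overlaps an ETS core, and the Col15a1 window held none of the 6 motifs. GC boxes were found in 57.1% of the 35 member windows and in 32.7% of all 32817 windows in the table, and TATA boxes in 0% and 12.4%. CCAAT was found in 25.7% and 33.8%, the AP-1 letters in 5.71% and 6.75%, the ETS core in 34.3% and 29.5% and the hypoxia core in 5.71% and 16.6%. These are matches of letters and not measured binding.

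**Figure D1:**
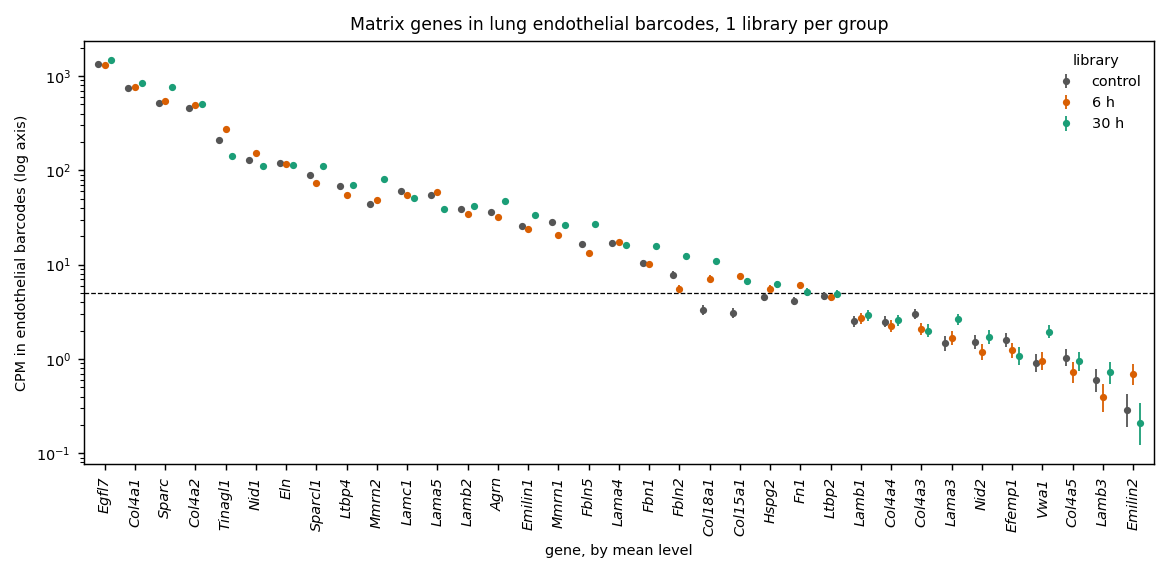
Level of each of the 35 members in EC barcodes, in CPM on a log axis, with 1 point per library (control, 6 h and 30 h), 95% intervals of counting error and genes ordered by mean level. Egfl7, Col4a1, Sparc and Col4a2 lead in every library, and 11 members average less than the 5 CPM marked by the dashed line.

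The member levels spanned from under 1 to above 1000 CPM, and the same few genes led in every library. Egfl7, a protein secreted mainly by ECs whose gene also carries miR-126, had 1351 CPM in control, 1304 at 6 h and 1473 at 30 h. Of the collagen IV chains that build the common network, Col4a1 had 744, 774 and 855 CPM and Col4a2 462, 497 and 502 CPM. Sparc, a collagen-binding matricellular protein, had 523, 550 and 764 CPM. The order Egfl7, Col4a1, Sparc, Col4a2 held in each library, ahead of Tinagl1 with 212, 273 and 143 CPM.

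Of the 35 members, 24 averaged 5 CPM or more in the 3 libraries, the minimum used for ratios. Col15a1, Col18a1, Hspg2 and Fn1 were under 5 CPM in control and passed that minimum through the melanoma libraries, so counts over the 24 are descriptions and not support. At 6 h, 2 of the 24 were past 1.5-fold higher than control, Col15a1 and Col18a1, beside 2.08% of all genes, and 0 were lower, beside 1.25%. At 30 h, 5 were higher than control, Col15a1, Col18a1, Fbln2, Fbln5 and Mmrn2, or 20.8% of the members against the 4.91% of all genes given above, and 0 were lower. Against the 6 h library, the 30 h library had 6 members higher (Col18a1, Sparcl1, Fbln2, Fbln5, Fbn1 and Mmrn2), where 5.29% of all genes were higher, and 2 lower (Lama5 and Tinagl1), where 5.28% were lower. The median log2 ratio of the 24 members to control was -0.01 at 6 h and 0.25 at 30 h, beside -0.01 and -0.07 for all genes. A ratio above 0 was found for 12 of the 24 at 6 h, beside 46.5% of all genes, and for 17 of the 24 at 30 h, beside 41.1%.

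Classes were set by marker UMIs in each barcode and named after their markers. General capillary cells (gCap-like) made up 64.8%, 66.3% and 60.2% of EC barcodes in control, 6 h and 30 h. Aerocytes (aCap-like), the large capillary cells over which gas is exchanged, made up 13.6%, 11.6% and 15.6%. Vein-like barcodes made up 5.81%, 4.55% and 5.21%, and lymphatic (LEC-like) barcodes 0.557%, 0.485% and 0.576%, or 62, 51 and 53 barcodes. Artery-like barcodes made up 1.48%, 1.41% and 3.02%. The gate gene Gja5 had 3.40, 4.84 and 15.3 CPM in all EC barcodes, so the artery-like share moved with a gene of its own gate, and more artery cells and more Gja5 per cell cannot be told apart. The other gate genes Bmx and Dkk2 had 17.3, 13.2 and 19.2 CPM and 0.669, 0.808 and 0.695 CPM. The limit also holds for artery-like levels and ratios at 30 h and for values at the class makeup of control. In these, a change of level and a change in which barcodes passed the gate cannot be told apart. Barcodes that passed no gate made up 13.3% to 15.2% and were shallow.

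In gCap-like barcodes, 19 members passed the 5 CPM minimum. Col15a1 was past 1.5-fold higher and Fbln2 past 1.5-fold lower at 6 h, beside 2.52% of 9988 genes higher and 1.25% lower. With barcodes holding RNA of other cells left out, the log2 ratio of Fbln2 at 6 h went from -0.69 to 0.19, which ended the call. The call of Col15a1 at 6 h ended there too. Without the epithelial marker list, an alternative chosen after seeing the data, the Fbln2 ratio was -0.61, past 1.5-fold. That list holds Hopx, which had 645, 558 and 608 CPM in all EC barcodes and 862, 763 and 698 CPM in empty droplets. With the list 6.66%, 13.0% and 15.0% of EC barcodes were kept, and without it 80.3%, 75.4% and 73.6%. Whether RNA of other cells or Hopx of the ECs ended these calls was not tested. At 30 h, Col15a1, Sparc and Mmrn2 were higher than control, beside 5.04% of genes higher, and 0 members were lower, beside 4.86%. From 6 h to 30 h, Agrn, Sparcl1, Fbln2 and Mmrn2 were higher and Tinagl1 lower, beside 5.07% and 5.23% of genes. Col15a1 and Mmrn2 were past 1.5-fold at 30 h both over all ECs and within gCap-like barcodes, though with barcodes holding RNA of other cells left out Col15a1 was at 0.24 in gCap-like barcodes while Mmrn2 stayed past it. Fbln5 was past it over all ECs and under the 5 CPM minimum in gCap-like barcodes, at 3.67, 3.31 and 3.81 CPM in gCap-like barcodes.

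**Figure D2:**
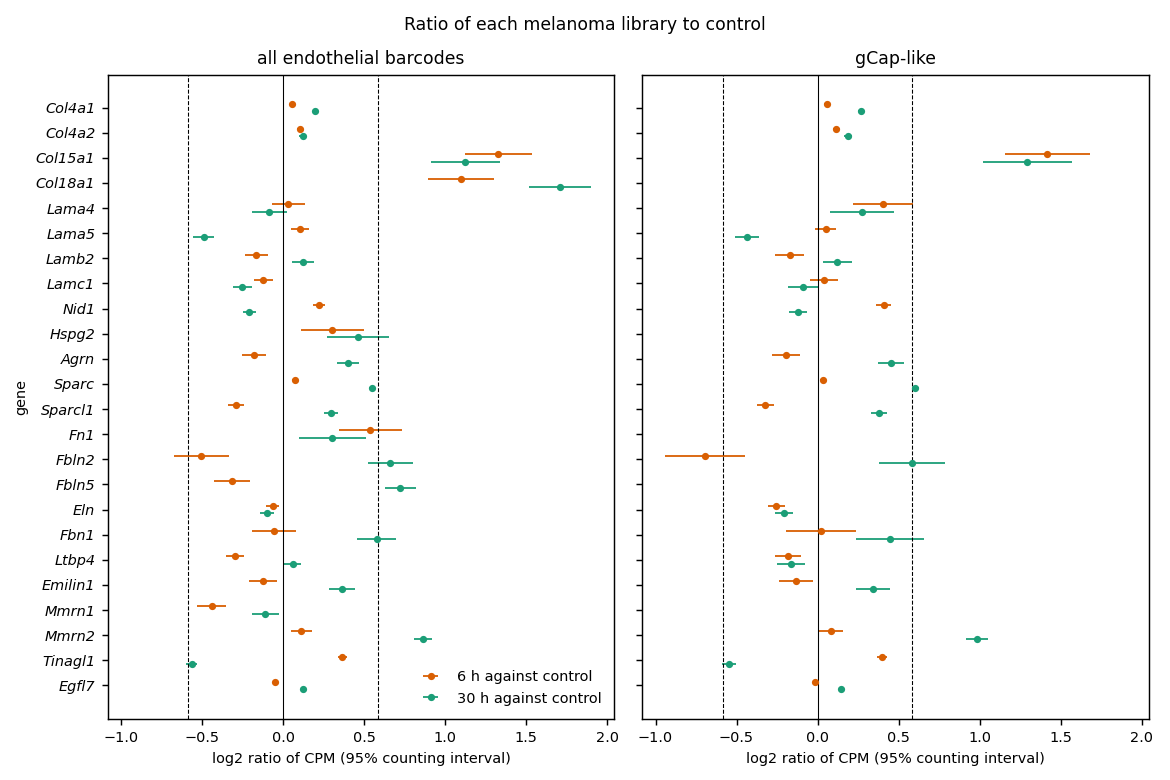
Log2 ratio of members at 6 h and 30 h to control, in all EC barcodes (24 members) and in gCap-like barcodes (19 members), with 95% intervals of counting error and dashed lines at 1.5-fold. Col15a1 lies past 1.5-fold at both times in both panels, and Mmrn2 at 30 h in both.

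Among the network genes the RNA of collagen IV was the most abundant, and its levels in the 3 libraries lay close together. Col4a1 was at a log2 ratio of 0.06 at 6 h and 0.20 (0.18 to 0.22) at 30 h, and Col4a2 at 0.11 and 0.12. Both were highest in aCap-like barcodes in every library, where Col4a1 had 985, 939 and 1025 CPM and Col4a2 689, 690 and 683 CPM. A class was said to stand above every other when its lowest interval bound over the libraries lay above the highest bound of any other class. Col4a1 and Col4a2 were the 2 members for which aCap-like barcodes did so, as they did for 2.9% of the 11677 genes that averaged 5 CPM or more in some class. Vein-like barcodes had the fewest of the blood vessel classes, at 393, 425 and 382 CPM of Col4a1 and 201, 225 and 176 CPM of Col4a2.

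Col4a1 and Col4a2 lie head to head on chromosome 8. In the GENCODE M21 annotation of GRCm38, Col4a1 starts at 11312826 on the minus strand and Col4a2 at 11312805 on the plus strand, so the first exons overlap by 22 bases, which are shown because both transcripts begin in them. Capitals again mark the GC box letters.
Col4a1 and Col4a2, chr8:11312805-11312826, plus strand: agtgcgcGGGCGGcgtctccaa

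Though the genes share this start region, their quotient was not the same in every class. Per UMI of Col4a1, all EC barcodes held 0.621 UMIs of Col4a2 in control (interval 0.613 to 0.628), 0.642 at 6 h (interval 0.635 to 0.650) and 0.587 at 30 h (interval 0.580 to 0.595). In aCap-like barcodes the quotient was 0.699, 0.735 and 0.666, in gCap-like barcodes 0.595, 0.620 and 0.561, and in vein-like barcodes 0.511, 0.529 and 0.462. The order aCap-like, gCap-like, vein-like held in each library, and in those classes and in all ECs the quotient was highest at 6 h and lowest at 30 h. Artery-like barcodes had 0.592, 0.587 and 0.526, with intervals that overlap those of gCap-like barcodes. LEC-like barcodes had the lowest quotients of the classes, 0.399, 0.504 and 0.399, from 85, 132 and 119 UMIs of Col4a2, with intervals that overlap those of vein-like barcodes.

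**Figure D3:**
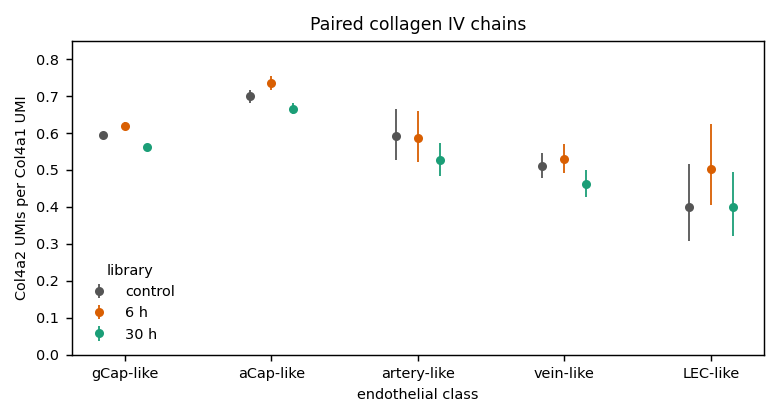
UMIs of Col4a2 per UMI of Col4a1 in each class, by library, with 95% intervals of counting error. The quotient is highest in aCap-like barcodes, 0.666 to 0.735, in every library.

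The chains of the other collagen IV network, which in the lung belongs largely to the alveolar epithelium, were sparse. Col4a3 had 270, 180 and 161 UMIs, Col4a4 224, 193 and 207 UMIs and Col4a5 93, 63 and 76 UMIs over all EC barcodes. Col4a3 reached 11.4, 10.1 and 13.3 CPM in empty droplets (10 to 100 UMIs), above its level in all ECs. Free RNA was estimated at 4.98% to 6.89% of EC UMIs, and its part in these counts was not tested. In LEC-like barcodes, 6, 13 and 6 UMIs of Col4a3 and 12, 3 and 8 UMIs of Col4a5 were counted.

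Collagens XV and XVIII, which carry heparan or chondroitin sulfate chains and sit where the basement membrane meets the interstitium, had the highest log2 ratios at 6 h among the 24 members past the minimum. Col15a1 had 3.05 CPM in control (274 UMIs), 7.65 at 6 h (663 UMIs) and 6.65 at 30 h (536 UMIs). Both melanoma libraries were above control, at log2 ratios of 1.33 (1.12 to 1.53) and 1.12 (0.91 to 1.34). Within gCap-like barcodes its levels were 2.79, 7.44 and 6.85 CPM, with log2 ratios of 1.41 (1.15 to 1.68) and 1.30 (1.02 to 1.57), and there too it passed the minimum only through the melanoma libraries. With barcodes holding RNA of other cells left out, which kept 741, 1366 and 1378 EC barcodes, its log2 ratios were 0.93 and 0.59 over all ECs. In gCap-like barcodes they were 0.53 at 6 h and 0.24 at 30 h, both under 1.5-fold. Without the epithelial list, which holds Hopx, the log2 ratios were 1.21 and 1.09 over all ECs and 1.32 and 1.31 in gCap-like barcodes. In vein-like barcodes it had 8.32, 20.2 and 9.16 CPM, above control at 6 h and close to it at 30 h. In artery-like barcodes it had 4.55, 18.6 and 16.2 CPM. Empty droplets held 0, 5 and 30 UMIs of Col15a1, or 11.4 CPM at 30 h. With an estimate of this free RNA taken off, the log2 ratios over all ECs were 1.26 at 6 h and 0.97 at 30 h.

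Col18a1, whose C-terminal fragment is endostatin, had 3.32, 7.11 and 10.9 CPM (298, 616 and 874 UMIs). The 3 libraries stood apart in that order, with log2 ratios to control of 1.10 (interval 0.90 to 1.30) at 6 h and 1.71 (interval 1.52 to 1.90) at 30 h, and 0.61 (0.46 to 0.76) between the melanoma libraries. That last value was under 1.5-fold at the class makeup of control (0.28), as the mean over barcodes (0.40) and with barcodes holding RNA of other cells left out (0.49). Empty droplets held 7.98, 11.5 and 14.0 CPM of Col18a1 (7, 8 and 37 UMIs), above its level in all ECs of each library, with intervals that overlap. In aCap-like barcodes the levels were 3.62, 8.23 and 19.3 CPM, with a log2 ratio of 2.41 (2.00 to 2.84) at 30 h. In gCap-like barcodes it stayed under the minimum at 1.08, 3.83 and 4.65 CPM. In vein-like barcodes it had 5.60, 11.2 and 14.6 CPM. LEC-like barcodes held the highest levels, 96.7, 49.7 and 125 CPM, and there the interval at 30 h included 0, as it did in artery-like barcodes.

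Laminins are trimers of an α, a β and a γ chain, and the endothelial forms carry α4 or α5. Lama5 had 54.7, 58.8 and 38.9 CPM, lower at 30 h than in either other library, with log2 ratios of -0.49 (-0.56 to -0.43) to control and -0.60 (-0.66 to -0.53) to 6 h. The latter was under 1.5-fold by size factors (-0.53), at the class makeup of control (-0.56) and with barcodes holding RNA of other cells left out (-0.52). In gCap-like barcodes it had 65.0, 67.3 and 48.1 CPM. Lama4 had 17.2, 17.6 and 16.2 CPM. Of its UMIs, 41.1%, 34.4% and 36.5% came from LEC-like barcodes, where it had 1250, 1240 and 889 CPM. The partner chain Lamc1 had 60.1, 55.2 and 50.4 CPM. In aCap-like barcodes Lamc1 had 162, 132 and 107 CPM, a log2 ratio of -0.60 (-0.69 to -0.52) at 30 h, beside -0.09 in gCap-like barcodes, where the interval included 0. Lamb2 had 39.0, 34.7 and 42.4 CPM.

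The other laminin chains were under the minimum. Lamb1 had 226, 235 and 235 UMIs, and at 14.8, 14.4 and 14.8 CPM was higher in empty droplets than in ECs. Lama3, an α chain known mainly from epithelial laminin, had 131, 145 and 212 UMIs, and Lamb3, its epithelial β partner, 54, 34 and 58. Lama3 was the 1 member for which artery-like barcodes stood above every other class, at 30.6, 37.2 and 39.9 CPM, as they did for 0.651% of genes. It passed the 5 CPM minimum through that class alone, so its place there is a description. Artery-like barcodes held 35.9%, 35.9% and 52.4% of its UMIs, while they were 1.48%, 1.41% and 3.02% of EC barcodes.

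Nidogens and heparan sulfate proteoglycans link the networks. Nid1 had 130, 151 and 112 CPM, at log2 ratios of 0.22 (interval 0.19 to 0.26) at 6 h and -0.21 (interval -0.25 to -0.17) at 30 h. In gCap-like barcodes Nid1 had 101, 134 and 93.1 CPM, and in aCap-like barcodes, where it was highest of the classes, 268, 266 and 205 CPM. At 6 h, Nid1 was thus above control in gCap-like barcodes and level with it in aCap-like barcodes, and the difference between classes was not tested. Agrn had 36.2, 32.0 and 47.8 CPM, and in gCap-like barcodes 40.2, 35.1 and 55.1 CPM, with a log2 ratio of 0.65 (0.57 to 0.73) between 30 h and 6 h. Hspg2, which encodes perlecan, had 4.50, 5.55 and 6.19 CPM over all ECs, and 9.12, 10.1 and 19.7 CPM in empty droplets. Nid2 had 135, 103 and 138 UMIs, and its 3′ end overlaps Rtraf on the opposite strand.

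Among the matricellular proteins, Sparc was higher at 30 h than in both other libraries. Its log2 ratio to control was 0.55 (0.53 to 0.56) over all ECs, under the 1.5-fold threshold, and 0.60 (0.58 to 0.62) in gCap-like barcodes, where it had 628, 643 and 955 CPM. Artery-like barcodes had 423, 547 and 772 CPM of Sparc, LEC-like barcodes 588, 838 and 967 CPM and aCap-like barcodes 247, 227 and 316 CPM. Vein-like barcodes had 246, 255 and 267 CPM, with overlapping intervals. Every class was highest at 30 h. Pericyte and smooth muscle markers, whose cells make much Sparc, also summed highest at 30 h over all ECs. They were highest at 30 h too in gCap-like (64.6, 70.8 and 85.8 CPM), artery-like (63.1, 80.9 and 85.1 CPM) and vein-like barcodes (56.7, 51.2 and 104 CPM), and lowest at 30 h in aCap-like (47.7, 49.0 and 43.9 CPM) and LEC-like barcodes (69.1, 92.3 and 63.5 CPM). The log2 ratio of Sparc at 30 h was 0.63 over all ECs and 0.60 in gCap-like barcodes with barcodes holding RNA of other cells left out, and without the epithelial list 0.53 and 0.60. As the mean over barcodes the gCap-like value was 0.58, under 1.5-fold. Sparcl1, the related anti-adhesive protein hevin, had 90.4, 73.9 and 111 CPM, lowest at 6 h and highest at 30 h. Empty droplets held 182, 131 and 179 CPM of Sparcl1, also lowest at 6 h. These lay above its level in all ECs of each library, with intervals that do not overlap. The log2 ratio of Sparcl1 between the melanoma libraries over all ECs, 0.59, was at the threshold. It was under the threshold with barcodes of 300 or more genes and no upper limit (0.56) and with the highest Scrublet doublet scores left out (0.58). In gCap-like barcodes Sparcl1 had 109, 86.8 and 141 CPM, with a log2 ratio of 0.70 (0.65 to 0.75) between the melanoma libraries. Fn1, fibronectin, had 4.14, 6.02 and 5.11 CPM in ECs and 31.9, 34.6 and 67.5 CPM in empty droplets, so its EC values lie under the free RNA of the same libraries.

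**Figure D4:**
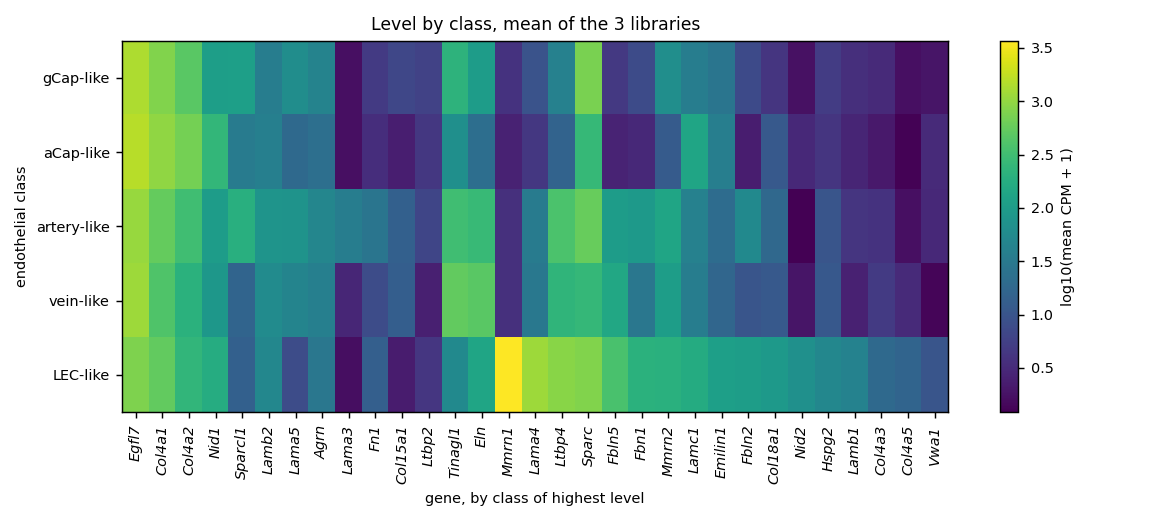
Level of the 31 members that averaged 5 CPM or more in some class, as log10 of the mean CPM of the 3 libraries plus 1, by class. Genes are ordered by the class in which they are highest, with Egfl7, Col4a1, Col4a2 and Nid1 in aCap-like, Tinagl1 and Eln in vein-like and 17 members in LEC-like barcodes.

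Elastic fibres are laid down in the walls of larger vessels as well as in the alveolar wall. Eln, tropoelastin, had 121, 116 and 113 CPM over all ECs. It was the 1 member for which vein-like barcodes stood above every other class, at 388, 582 and 456 CPM, as they did for 1.32% of genes. At 6 h its vein-like level was at a log2 ratio of 0.59 (0.51 to 0.66) to control, while over all ECs the ratio was -0.06. In these barcodes the epithelial markers summed to 2264, 4461 and 214 CPM and the leukocyte markers to 243, 569 and 22.8 CPM. With barcodes holding RNA of other cells or at least 10 epithelial UMIs left out, these came to 355, 245 and 195 CPM and to 14.2, 15.5 and 10.7 CPM, and the ratio of Eln was 0.63 (0.55 to 0.72). In aCap-like barcodes Eln had 24.5, 17.8 and 20.5 CPM.

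Fbln5, which helps tropoelastin assemble on microfibrils, had 16.4, 13.2 and 27.1 CPM, and the 30 h library was above both others at log2 ratios of 0.72 (0.63 to 0.82) to control and 1.04 (0.93 to 1.14) to 6 h. Of its UMIs, 14.7%, 17.4% and 8.65% came from gCap-like barcodes. Vein-like barcodes held 51.1%, 46.4% and 52.4% and had 114, 106 and 223 CPM, a log2 ratio of 0.97 (0.84 to 1.10) at 30 h. The pericyte and smooth muscle markers of vein-like barcodes summed to 56.7, 51.2 and 104 CPM. With barcodes holding RNA of other cells left out, without the epithelial list, these came to 17.0, 14.2 and 14.8 CPM, and the ratio of Fbln5 was 0.99 (0.85 to 1.14). With the same barcodes left out as for Eln it was 0.94 (0.80 to 1.09). Artery-like barcodes had 72.2, 78.8 and 156 CPM, a log2 ratio of 1.11 (0.80 to 1.42), with the limit of that gate given above. Their share of Fbln5 UMIs went from 7.53% in control to 19.8% at 30 h, and their share of EC barcodes from 1.48% to 3.02%. LEC-like barcodes had 403, 353 and 368 CPM. With every library weighted to the class makeup of control, the log2 ratio over all ECs at 30 h was 0.62.

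Fbln2, a fibulin of vessel walls, had 7.87, 5.54 and 12.5 CPM, lowest at 6 h, with a log2 ratio of 0.66 (0.52 to 0.80) at 30 h and 1.17 (1.01 to 1.33) between the melanoma libraries. At the class makeup of control the ratio at 30 h was 0.52, under the threshold. In gCap-like barcodes Fbln2 had 6.14, 3.80 and 9.19 CPM, and in artery-like barcodes 48.8, 36.5 and 78.3 CPM. Both classes showed the same order of libraries, except in gCap-like barcodes with those holding RNA of other cells left out, as given above. Fbn1, fibrillin-1, had 10.5, 10.1 and 15.7 CPM, log2 ratios of 0.58 (0.45 to 0.70) to control and 0.63 (0.51 to 0.76) to 6 h, and these were 0.35 and 0.33 at the class makeup of control. Empty droplets held 12.5, 21.6 and 25.8 CPM of Fbn1, above its level in all ECs of each library, with intervals that overlap in control only. Artery-like barcodes had 72.2, 75.2 and 129 CPM of Fbn1. Ltbp4, which binds latent TGF-β and fibulins, had 67.6, 55.1 and 70.5 CPM, and artery-like barcodes had 403, 347 and 399 CPM. Ltbp2, a related microfibril protein, had 417, 397 and 396 UMIs, and Efemp1, or fibulin-3, had 142, 107 and 87 UMIs. Both were higher in empty droplets than in ECs.

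The EMILIN and multimerin family held a member, Mmrn2, that differed at 30 h in all 4 blood vessel classes. Mmrn2, a matrix protein made by ECs that binds the receptor Clec14a, had 44.3, 47.9 and 80.6 CPM. The 6 h library was near control and the 30 h library above both, at log2 ratios of 0.86 (0.81 to 0.92) to control and 0.75 (0.69 to 0.81) to 6 h. In gCap-like barcodes the levels were 46.4, 49.2 and 91.6 CPM, with log2 ratios of 0.98 (0.91 to 1.05) and 0.90 (0.83 to 0.97). Vein-like barcodes had 76.2, 108 and 126 CPM, artery-like barcodes 111, 110 and 185 CPM and aCap-like barcodes 9.87, 6.80 and 16.6 CPM, each highest at 30 h. In vein-like barcodes the log2 ratio to control was already 0.51 (0.33 to 0.68) at 6 h, and between the melanoma libraries it was 0.21 (0.05 to 0.38). With barcodes holding RNA of other cells left out, without the epithelial list, the latter was 0.14 (-0.04 to 0.33). The vein-like ratio to control at 30 h was then 0.70 (0.52 to 0.89). The aCap-like levels lay under those of Mmrn2 in empty droplets, 28.5, 30.2 and 56.1 CPM, and the part of free RNA in them was not tested. LEC-like barcodes had 195, 227 and 164 CPM, lowest at 30 h. At the class makeup of control the log2 ratio at 30 h was 0.87.

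The share of barcodes with an Mmrn2 UMI showed the same order as the levels. After each barcode was thinned to 2000 UMIs, it was 7.81% in control, 8.51% at 6 h and 13.8% at 30 h, and 24.4%, 26.1% and 39.7% before thinning. A count of 0 was taken to allow a share of up to 3 barcodes of the total. Leukocyte barcodes, which should lack the gene, held Mmrn2 in 0 of 21 in control, which allows up to 14.3%, 0 of 45 at 6 h, which allows up to 6.67%, and 1.79% of 56 at 30 h. Thinned Sparc was found in 55.7%, 57.7% and 65.4% of EC barcodes and Tinagl1 in 29.2%, 34.5% and 20.9%. In the leukocyte barcodes each of them was found in 0% in control and at 6 h, with the same upper limits as for Mmrn2, and in 1.79% at 30 h.

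Mmrn1, a multimerin of platelets and lymphatic endothelium, came mostly from a single class: 82.2%, 84.0% and 85.3% of its UMIs lay in LEC-like barcodes, where it had 4128, 3595 and 3368 CPM. Its all-EC levels were 28.3, 20.9 and 26.3 CPM. At the class makeup of control its log2 ratio at 6 h was -0.22 in place of -0.44, and at 30 h -0.26 in place of -0.11. Emilin1, which anchors elastic fibres to cells, had 25.9, 23.8 and 33.4 CPM, and Emilin2 had 26, 60 and 17 UMIs.

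LEC-like barcodes stood above every other class for 10 members, Col18a1, Lama4, Lamb1, Nid2, Hspg2, Fbln5, Fbn1, Ltbp4, Emilin1 and Mmrn1, as they did for 4.81% of genes. Of these, Lamb1, Nid2 and Mmrn1 passed the 5 CPM minimum through LEC-like barcodes alone and so had to be highest there, and the count is a description. Ltbp4 had 997, 821 and 879 CPM there, Fbn1 192, 189 and 231 CPM, Emilin1 109, 109 and 112 CPM and Hspg2 39.5, 52.1 and 54.1 CPM. Nid2 had 43.4, 80.5 and 80.3 CPM there and Lamb1 37.5, 35.5 and 52.3 CPM. The gCap-like barcodes stood above the other classes for 0 members, beside 0.231% of genes. In all, 31 members averaged 5 CPM or more in some class, and 14 of them had a class that stood above every other. Over all genes the shares were 0.231% for gCap-like, 2.9% for aCap-like, 0.651% for artery-like, 1.32% for vein-like and 4.81% for LEC-like barcodes. Of the 14, Lama3, Lamb1, Nid2 and Mmrn1 passed the minimum through their highest class alone, so this count too is a description. Mmrn1 is itself known as a lymphatic marker and was not used to choose the LEC-like barcodes.

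**Figure D5:**
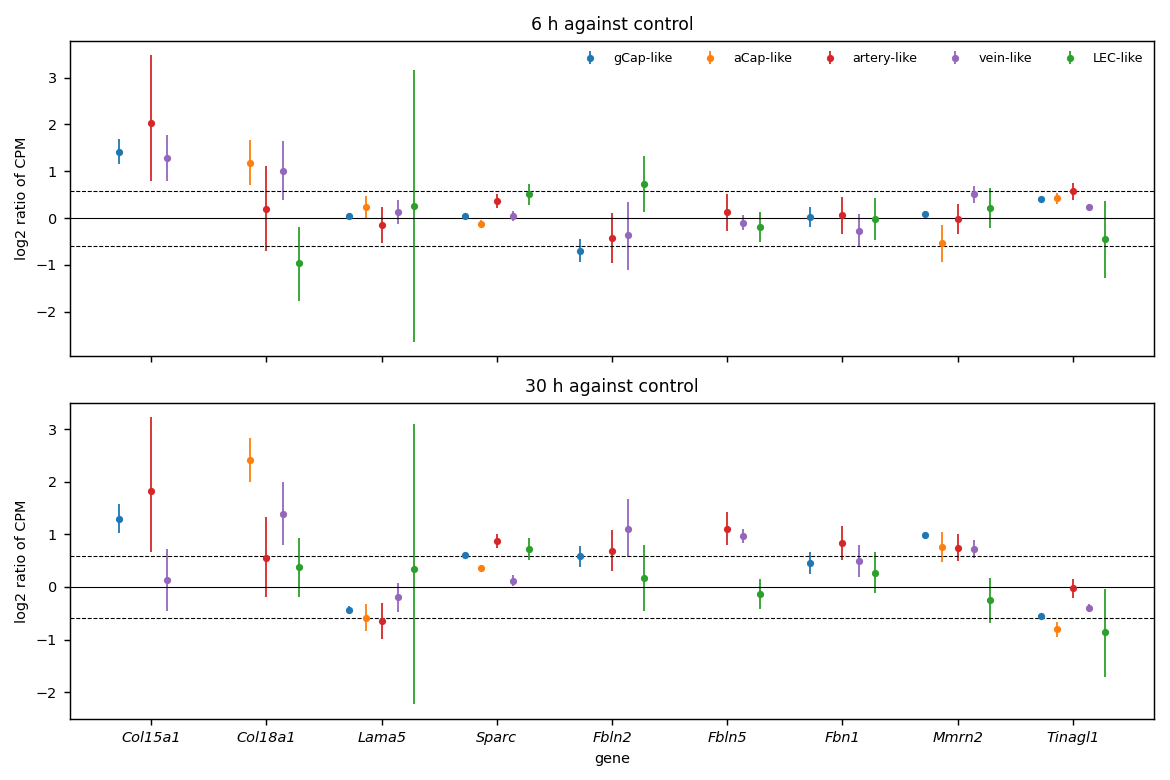
Log2 ratio to control at 6 h and at 30 h of 9 members in the classes where they passed the 5 CPM minimum, with 95% intervals of counting error and dashed lines at 1.5-fold. Mmrn2 lies above 0 at 30 h in gCap-like, aCap-like, artery-like and vein-like barcodes, and Tinagl1 lies below 0 in gCap-like, aCap-like and vein-like barcodes.

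Tinagl1, a basement membrane protein related to the cathepsin B family that binds integrins, had 212, 273 and 143 CPM. It was above control at 6 h, at a log2 ratio of 0.37 (0.34 to 0.39), and below it at 30 h, at -0.57 (-0.60 to -0.53), and differed by -0.93 (-0.96 to -0.90) between the melanoma libraries. In gCap-like barcodes it had 218, 287 and 149 CPM, in aCap-like barcodes 66.3, 89.1 and 37.9 CPM and in vein-like barcodes, its highest class, 544, 641 and 411 CPM. All 3 classes showed 6 h highest and 30 h lowest, while in artery-like barcodes the log2 ratio at 30 h was -0.03 with an interval that included 0. The summed epithelial and red cell markers were also lower at 30 h than in control. With barcodes holding RNA of other cells left out, the log2 ratio of Tinagl1 at 30 h was -0.57 over all ECs and -0.76 in gCap-like barcodes, and without the epithelial list -0.60 and -0.58. Red cell markers were not used to leave barcodes out, and their part was not tested. Egfl7 had log2 ratios of -0.05 and 0.12 and was highest in aCap-like barcodes, at 1540, 1431 and 1672 CPM. Vwa1, a von Willebrand factor A domain protein of the basement membrane, had 82, 83 and 157 UMIs.

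Within gCap-like barcodes, a subset with UMIs of Esm1, a secreted proteoglycan of sprouting endothelium, numbered 218, 281 and 234. Sparcl1 was higher in these than in the other gCap-like barcodes in all 3 libraries, at log2 ratios of 1.53, 1.12 and 1.45, as were Ltbp4 at 0.95, 1.19 and 1.36, Col15a1 at 2.53, 1.20 and 1.95 and Hspg2 at 2.15, 1.19 and 1.20. Col15a1 and Hspg2 had only 3.05 and 4.50 CPM over all control EC barcodes, so their ratios in so small a subset rest on few UMIs. Barcodes with UMIs of each of Pim3, Bcl3 and Tmem252, genes of the reactive capillary state described by the study, numbered 283, 879 and 261, and were deeper than the rest. At 6 h they had 957 CPM of Col4a1 beside 739 in the remaining gCap-like barcodes, 597 of Col4a2 beside 457 and 14.0 of Col15a1 beside 6.27. The control and 30 h values of this subset are not given here, nor are the other members of either subset. The subsets are barcodes of the same libraries and not replicates.

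Genes that make, modify or bind this matrix were listed beside the members. Of 27 genes of collagen and elastin assembly, 19 passed the minimum, and 2 were past 1.5-fold higher and 0 lower at 6 h, beside 2.08% and 1.25% of all genes. Serpinh1, the collagen chaperone HSP47, had 132, 247 and 238 CPM, at log2 ratios of 0.90 and 0.85. P4ha1, a collagen prolyl hydroxylase, was at 0.78 at 6 h, with 53.1 and 91.4 CPM. At 30 h, Serpinh1 and Crtap, a part of the prolyl 3-hydroxylase complex with a log2 ratio of 0.67, were higher, and P4ha2 was lower at -1.15. From 6 h to 30 h, Crtap and Loxl2, a lysyl oxidase, were higher by 0.86 each, and P4ha1, P4ha2 and Tgm2 were lower at -0.98, -1.36 and -0.80.

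Of 47 other basement membrane and matrix genes, 19 passed the minimum. Ccn1, an integrin-binding matricellular protein, had 61.1, 108 and 33.1 CPM, above control at 6 h and below it at 30 h. Lamc3, a further laminin γ chain, had 23.4, 12.9 and 7.56 CPM, at log2 ratios of -0.86 and -1.63. Efemp2, which is needed for elastic fibre crosslinking, was higher at 30 h, at 0.73. Against 6 h, Npnt and Egfl8 were higher at 30 h by 0.59 and 0.61, and Lamc3, Ecm1 and Ccn1 lower at -0.77, -0.68 and -1.70. Of 24 receptors and anchors, 17 passed. Sdc4, a syndecan, was higher at 6 h at 0.67, Sdc3 higher at 30 h at 0.67 and the integrin subunit Itgav lower at -0.70. Against 6 h, Bcam, a laminin α5 receptor, and Itgb5 were higher by 0.83 and 0.78, and Sdc4 and Itga5 lower at -0.63 and -0.65. The median log2 ratios of the 3 lists to control ran from -0.10 to 0.12.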

How the data were processed

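Cells were sorted from mouse lungs and sequenced by droplet 3′ single-cell RNA sequencing in 3 libraries, 1 per group, with groups taken from the treatment in the labels. The deposited matrices hold whole-number UMI counts per gene and barcode, unfiltered, which the authors made with Cell Ranger 7.2.0 on mm10 per the labels. Seurat 4.4.0 is named there too. The study's methods name an earlier Cell Ranger version than the labels do, and this difference is not settled here. Whether intronic reads were counted is not given in the sources used here. No column of sample values was left unused (0).

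EC barcodes were chosen as stated in the report. Classes were gated by summed marker UMIs: at least 6 of Ednrb, Tbx2, Fibin and Chst1 (aCap-like), 3 of Gja5, Bmx and Dkk2 (artery-like), 4 of Slc6a2, Bst1, Amigo2 and Car8 (vein-like), 3 of Prox1 and Reln (LEC-like), or 10 of Gpihbp1, Aplnr, Kit, Plvap and Glp1r without another gate (gCap-like). Doublets were not removed in the main setting and were left out by Scrublet score (scanpy 1.11.5) as an alternative. UMIs were summed per library and scaled to CPM. Intervals at 95% (scipy 1.17.1) were exact Poisson for sums, conditional binomial for ratios and Clopper-Pearson for shares, and a share of 0 was given the upper limit of 3 counts of its total. Sequencing reads of 1 molecule collapse into 1 UMI, and the intervals hold no error between mice.

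All members are accounted for. Those past 1.5-fold in any comparison are named with values, as are the leading members of each role, members under 5 CPM by their UMIs, and of the other lists up to 3 genes per direction past 1.5-fold. The members and lists were chosen with earlier results of these data known, and the gate levels were set after marker levels had been seen. With 1 library per group no test was run. The scripts were tested on simulated data. Positions and overlaps are from GENCODE M21 (GRCm38), in which 32158 of 32285 gene IDs (99.6%) were found. Alternatives covered scaling, level minimum, fold threshold, barcode limits, doublets, free RNA, RNA of other cells, class gates and class makeup.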

Additional observations from a re-analysis of the deposited data

Results flagged for a closer look

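Some members differed from the shared control library in opposite directions at 6 h and at 30 h, by at least 0.2 on the log2 scale each way. Whether the melanoma groups differ in these effects was not tested, since each is 1 library. Over all EC barcodes, Nid1 was at 0.22 at 6 h and -0.21 at 30 h, and Tinagl1 at 0.37 and -0.57. Sparcl1 was at -0.29 and 0.30, Fbln2 at -0.51 and 0.66 and Fbln5 at -0.32 and 0.72, with the lower value at 6 h. In gCap-like barcodes the log2 ratios were 0.40 and -0.55 for Tinagl1, -0.32 and 0.38 for Sparcl1 and -0.69 and 0.58 for Fbln2. With barcodes holding RNA of other cells left out, Fbln2 in gCap-like barcodes was at 0.19 at 6 h and 1.76 at 30 h, no longer in opposite directions. Without the epithelial list it was at -0.61 and 0.62, still in opposite directions. Nid1 and Fbln5 were not of this kind in gCap-like barcodes.

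Empty droplets, which were not used in the comparisons, held at least 1.5 times the control CPM of 4 members at 30 h. These 4 had at least 20 UMIs at 30 h and intervals that did not overlap. The same rule was not run over all genes, so the count is a description and not a result about the members. Red cell markers in empty droplets summed to 62423.5 CPM in control and 11134.5 CPM at 30 h. Col15a1 had 11.4 CPM there at 30 h and 0 in control, Fn1 67.5 and 31.9 CPM, Ltbp4 103 and 68.4 CPM and Mmrn2 56.1 and 28.5 CPM. In EC barcodes, Ltbp4 had 70.5 and 67.6 CPM and Mmrn2 80.6 and 44.3 CPM in the same order.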

How the results depend on the processing

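Under 11 alternatives with ratios, 1290 log2 ratios were recomputed, of which 1035 stayed inside the counting interval of the reported value, 254 lay outside it without turning a value past 1.5-fold, and 1 did turn such a value. In all, 41 changed sign, that 1 included: Fbln2 in gCap-like barcodes at 6 h, from -0.69 to 0.19 with barcodes holding RNA of other cells left out, which kept only 741, 1366 and 1378 EC barcodes. The epithelial list used there holds Hopx, as given above. Counts of members past 1.5-fold that were not within 1.5 times the reported count follow, with the share of all genes under the same alternative. At 2-fold in all ECs, 2 members in place of 5 were higher at 30 h, 2 in place of 6 higher and 0 in place of 2 lower between the melanoma libraries (0.986%, 1.22% and 1.44% of genes); in gCap-like barcodes the counts were 0 lower at 6 h, 1 higher at 30 h, and 1 higher and 0 lower between the melanoma libraries, in place of 1, 3, 4 and 1 (0.120%, 1.18%, 1.24% and 1.46%). With a minimum of 1 CPM, 1 was lower at 30 h in all ECs in place of 0 (6.28%), and in gCap-like barcodes 3 were higher and 2 lower at 6 h, and 5 higher and 1 lower at 30 h, in place of 1, 1, 3 and 0 (3.77%, 2.30%, 7.71% and 6.24%). With RNA of other cells left out, 2 were lower at 6 h in all ECs in place of 0 (4.35%); in gCap-like barcodes 3 were higher at 6 h, 7 higher and 1 lower at 30 h and 2 lower between the melanoma libraries, in place of 1, 3, 0 and 1 (6.61%, 8.53%, 8.66% and 8.22%), and Col15a1 was not among the higher ones at either time. The same without the epithelial list, an alternative chosen after seeing the data, and the mean over barcodes each gave 1 lower at 30 h in all ECs (Tinagl1) in place of 0 (4.95% and 5.90%). The leaving out of such barcodes within vein-like and artery-like classes was also chosen after seeing the data. The limit of 300 genes (Mmrn1), the mean over barcodes and free RNA taken off (Fbln2) each gave 1 lower at 6 h in place of 0 (1.29%, 1.24% and 1.32%). Size factors, totals without mitochondrial and ribosomal RNA genes, and the class makeup of control each left 1 lower (Tinagl1) in place of 2 between the melanoma libraries (4.11%, 4.66% and 5.43%). A stricter gCap-like gate gave 5 higher at 30 h in place of 3 (5.33%). Size factors shifted ratios by at most 0.07 and put Sparc and Fbn1 past 1.5-fold at 30 h, 7 members in place of 5 (6.28%). Free RNA taken off moved Fn1 at 30 h from 0.30 to -2.43. The causes were not tested. No paired analysis was possible because each group has 1 library. For the same reason no library could be left out, and differences between mice are not covered by any interval.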

Other observations

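Barcodes outside the endothelial definition gave the levels of members in other cells of the same libraries, summed over few barcodes and with no test. In 53, 44 and 46 fibroblast barcodes of the control, 6 h and 30 h libraries, Sparc had 2057, 2060 and 2977 CPM, Sparcl1 1897, 1546 and 1579 CPM and Eln 1035, 638 and 629 CPM. In 51, 29 and 33 pericyte and smooth muscle barcodes, Sparc had 3109, 1929 and 2687 CPM, Col4a1 1554, 1072 and 1114 CPM and Ltbp2 741, 387 and 477 CPM. Sparc was thus above its endothelial level in both, while Mmrn2 had 4.84, 16.5 and 0 CPM in the pericyte barcodes.

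The collagen IV chains that were sparse in ECs were found in 33, 41 and 48 epithelial barcodes, at 122, 28.6 and 108 CPM of Col4a3 and 151, 62.2 and 99.7 CPM of Col4a4. In 27, 52 and 59 leukocyte barcodes, Fn1 had 231, 799 and 298 CPM and Emilin2 72.1, 290 and 68.1 CPM, each highest at 6 h, the library in which Emilin2 also had most UMIs in ECs. Platelet barcodes held 154, 221 and 206 CPM of Mmrn1, which platelets store. The 19 melanoma barcodes of the 6 h library held 630 CPM of Sparc, 51.7 CPM of Fbln5 and 5.17 CPM of Col15a1.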
